A study of Mus musculus with 4 samples.

Results

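The mast cell genes are 10 genes that mark this cell type, chosen by name from the 37074 gene names on a mouse expression array: Cpa3, Cma1, Mcpt4, Tpsb2 and Tpsab1, which encode granule proteases; Hdc and Slc18a2, which make and store amines; and Kit, Fcer1a and Ms4a2, which encode surface receptors. All 10 names were found, on 15 of the 56605 probes that are not controls. RNA of abdominal aorta from male mice of 12 weeks was measured on 4 one-colour arrays, 2 labelled SR-A1-/- (K4 and K5) and 2 labelled wild type (W2 and W3). Both groups had received CaPO4 4 weeks earlier, an operation in which calcium phosphate is used to injure the aortic wall. Msr1 encodes SR-A1, through which macrophages take up modified lipoproteins and other ligands. The allele, the strain and whether each array was 1 animal are not given in the sources used here. The series' design text mentions 2 independent experiments without saying which array belongs to which. No uninjured aorta was among these arrays, and a p-value here reflects spread between arrays that may be technical.

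Mast cells are tissue-resident cells of the haematopoietic lineage that lie around vessels, in the aorta mainly in the outer layer. Their survival depends on the receptor tyrosine kinase KIT, and cross-linking of IgE on the high-affinity receptor Fc epsilon RI releases granules that hold histamine, heparin, chymases, tryptases and carboxypeptidase A3. In mice, connective tissue mast cells are known for the proteases encoded by Cpa3, Cma1, Mcpt4 and Tpsb2, and mucosal mast cells for those encoded by Mcpt1 and Mcpt2. In mouse models of aortic aneurysm, mast cell chymase and tryptase have been studied as enzymes that act on matrix and on other protease zymogens.

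Promoters are shown for Cpa3, Mcpt4 and Cma1, which stood highest on K4, and for Hdc, which was lower on both K4 and K5 than on W2 and W3. RefSeq held a promoter for 8 of the 10 genes, from 250 bases before to 50 bases after the annotated start on GRCm38.p6, at chr3:20242132-20242431 for Cpa3, chr14:56062261-56062560 for Mcpt4, chr14:55944626-55944925 for Cma1 and chr2:126618629-126618928 for Hdc, all on the minus strand. Capitals mark AGATAA or TGATAA, which are among the letters that GATA factors such as GATA2 bind, and TATAAA, the TATA box, on either strand.
Cpa3 promoter: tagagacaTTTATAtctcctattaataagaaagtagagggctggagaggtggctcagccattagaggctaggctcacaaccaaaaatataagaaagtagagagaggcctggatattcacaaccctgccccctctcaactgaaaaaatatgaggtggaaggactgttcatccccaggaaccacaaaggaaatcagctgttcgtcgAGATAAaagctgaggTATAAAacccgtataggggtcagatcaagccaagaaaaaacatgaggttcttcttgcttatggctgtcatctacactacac
Mcpt4 promoter: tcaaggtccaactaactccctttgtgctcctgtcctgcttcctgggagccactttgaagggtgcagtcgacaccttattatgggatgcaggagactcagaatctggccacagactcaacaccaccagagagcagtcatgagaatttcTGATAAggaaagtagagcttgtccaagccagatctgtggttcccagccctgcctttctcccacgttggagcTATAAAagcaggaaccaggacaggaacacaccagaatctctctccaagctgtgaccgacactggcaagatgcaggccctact
Cma1 promoter: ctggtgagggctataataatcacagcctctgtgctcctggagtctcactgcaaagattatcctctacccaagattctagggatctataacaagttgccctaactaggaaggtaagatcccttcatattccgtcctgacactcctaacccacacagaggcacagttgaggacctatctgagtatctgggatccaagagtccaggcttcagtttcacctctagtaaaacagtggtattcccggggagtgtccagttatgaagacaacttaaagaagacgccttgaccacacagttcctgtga
Hdc promoter: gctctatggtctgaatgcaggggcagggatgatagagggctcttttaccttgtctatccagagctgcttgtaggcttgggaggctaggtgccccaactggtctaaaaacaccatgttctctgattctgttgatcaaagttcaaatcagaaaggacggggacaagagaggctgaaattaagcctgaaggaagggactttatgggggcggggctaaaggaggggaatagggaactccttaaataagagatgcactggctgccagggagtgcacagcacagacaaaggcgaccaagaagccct
AGATAA or TGATAA was found on either strand in 5 of the 8 promoters (Cpa3, Mcpt4, Fcer1a, Ms4a2 and Slc18a2), and in 19% of 27025 promoters of the same length, 1 per gene. TATAAA was found in 3 of the 8 (Cpa3, Mcpt4 and Fcer1a), against 14.2% of all promoters. CATGTG, which MITF can bind, was found in 1 of the 8 (Fcer1a), against 14.1%. The windows of Cma1 and Hdc held none of these exact letters. Other forms of these sites were not searched, and these matches are a description of the sequence alone.

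Several arrays stood apart before any mast cell gene was read. Msr1 was at -1.26 and -2.09 on the arrays labelled SR-A1-/-, against -5.30 and -2.10 on those labelled wild type, as log2 levels relative to each array's 75th percentile, and was not well above background on W2. A second Msr1 probe read -1.50 and -1.38 against -6.40 and -2.12. The targeted gene was thus not lower on the arrays labelled SR-A1-/-. By the first probe K5 and W3 read nearly alike, and the difference was 2.03 ± 1.09 (limma unadjusted p = 0.122, adjusted p = 0.965). The allele is not named, so whether these probes would read its loss is not known. Every direction below refers to the labels. The 75th percentile of the processed signal lay between 132 and 245, and 57.6% to 62.6% of probes were well above background. All 8 smooth muscle markers, which define the labelled tissue, were above background on all 4 arrays. White adipocyte markers summed to 30.1 times the 75th percentile on K5, against 625 on K4 and 394 and 676 on W2 and W3. Skeletal muscle markers summed to 126 and 214 on K4 and K5, against 1008 on W2 and 306 on W3.

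Of the 10 mast cell genes, 7 entered the test, since a probe of theirs was well above background on 2 or more arrays, and Tpsab1, Fcer1a and Ms4a2 did not. By limma's adjusted p none of the 7 passed 0.05, nor did any of the 22498 genes tested (0%). At an unadjusted p under 0.05, Hdc and Kit were lower on the arrays labelled SR-A1-/-, 2 of 7 genes, against 6.29% of all genes tested (2.45% lower and 3.84% higher). The proteases Cpa3, Cma1, Mcpt4 and Tpsb2 were highest on K4, and the other array labelled SR-A1-/- read within or close to the range of the arrays labelled wild type. The median difference of the 7 genes, labelled SR-A1-/- minus wild type, was 0.60 on the log2 scale, against -0.0058 for all genes tested, and it was -0.37 without K4. The mean was higher on the arrays labelled SR-A1-/- for 4 of the 7, against 49.3% of all genes tested. In whole tissue, a different number of mast cells and a different amount of RNA per mast cell cannot be told apart. For Hdc, Kit and Slc18a2 the same holds for RNA of other cells that use them.

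**Figure D1:**
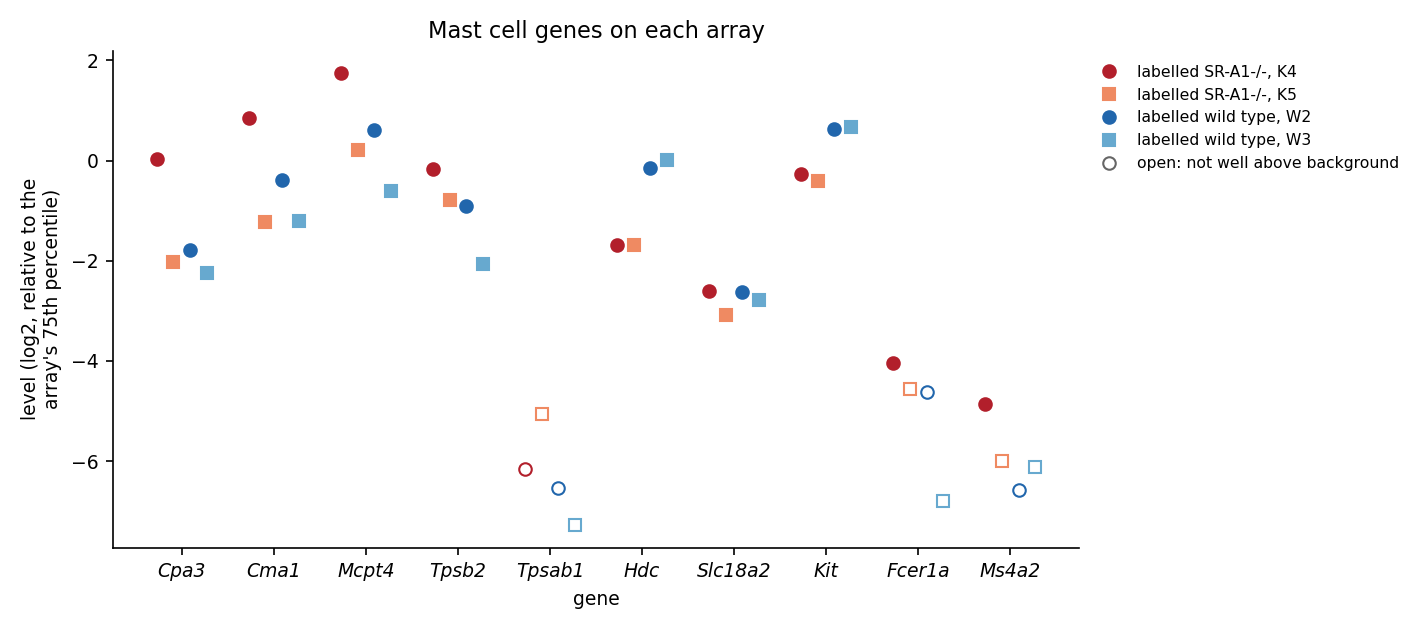
Log2 level of the 10 mast cell genes (x axis) on each of the 4 arrays, relative to the array's 75th percentile (y axis). Red and orange points are the arrays labelled SR-A1-/-, blue points those labelled wild type, and open points were not well above background. Of the 7 tested genes, K4 lies highest for Cpa3, Cma1 and Mcpt4, and by less for Tpsb2 and Slc18a2. Among the same 7, Hdc and Kit are lower on both arrays labelled SR-A1-/- (13.7% of all genes tested) and Tpsb2 is higher (16.1%). Levels of different genes come from different probes and are not compared.

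Cpa3 encodes carboxypeptidase A3, a granule enzyme that trims peptides after the chymases have cut them. Its probe lies at chr3:20115674-20115733 (mm9), base 1234 of NM_007753. The log2 level of Cpa3 was 0.030 on K4 and -2.02 on K5, against -1.78 on W2 and -2.24 on W3. K4 was 4.14-fold above K5, and K5 lay between the 2 arrays labelled wild type. The difference between groups was 1.02 ± 0.72 (limma standard error, 2 arrays per group, unadjusted p = 0.219, adjusted p = 1.0).

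The chymase Cma1 (mouse mast cell protease mMCP-5) and the chymase Mcpt4 (mMCP-4, the functional counterpart of human chymase) lie 118 kb apart on chromosome 14, measured between their probes. Cma1, read at chr14:56560454-56560513 (mm9, base 850 of NM_010780), was at 0.84 on K4 and -1.23 on K5, against -0.38 on W2 and -1.20 on W3. K4 was again the highest array, and K5 was the lowest. The Cma1 difference was 0.60 ± 0.76 (limma unadjusted p = 0.465, adjusted p = 1.0). Mcpt4, read at chr14:56678589-56678648 (mm9, base 922 of NM_010779), was at 1.74 on K4 and 0.21 on K5, against 0.60 on W2 and -0.60 on W3. The groups overlapped, and the Mcpt4 difference was 0.98 ± 0.68 (limma unadjusted p = 0.209, adjusted p = 1.0).

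Between the probes of Cma1 and Mcpt4 on the same chromosome lie those of Cma2, Mcpt1, Mcpt9 and Mcpt2, and that of Mcpt8 lies beyond Mcpt4. Mcpt1 and Mcpt2, the proteases of mucosal mast cells, Mcpt9, and the basophil protease gene Mcpt8 were above background on 0 of the 4 arrays. Cma2, named after its values were seen, was above background on all 4, at 0.66 on K4 and -0.61 on K5, against -0.067 on W2 and -1.16 on W3. Its order over the arrays, with K4 highest and W2 next, was that of Mcpt4, and its difference was 0.64 ± 0.60 (limma adjusted p = 1.0).

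Tpsb2 and Tpsab1 encode the tryptases mMCP-6 and mMCP-7, whose probes lie 24.1 kb apart on chromosome 17. Tpsb2, read at chr17:25504819-25504878 (mm9, base 869 of NM_010781), was at -0.17 on K4 and -0.79 on K5, against -0.91 on W2 and -2.06 on W3. Both arrays labelled SR-A1-/- lay above both labelled wild type, the 1 tested mast cell gene of which this was true, against 16.1% of all genes tested. K5 and W2 were 0.11 apart, and the Tpsb2 difference was 1.0 ± 0.50 (limma unadjusted p = 0.1005, adjusted p = 0.923). It was 0.43 without W3 and 1.58 without W2.

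Tpsab1 was not well above background on any array. Its readings were -6.15 and -5.05 on K4 and K5, against -6.53 and -7.28 on W2 and W3, on the same log2 scale, and no fold is given. The C57BL/6J annotation of RefSeq lists Tpsab1 as a transcribed pseudogene, and the strain of these mice is not given in the sources used here. The probe, at chr17:25480640-25480699 (mm9, minus strand), is printed to show what was queried, and the longest run of bases that it shares with the Tpsb2 probe is 6.
Tpsab1 probe: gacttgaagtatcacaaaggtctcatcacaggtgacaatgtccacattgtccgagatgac

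The 4 measured protease genes had their highest level on the same array, K4. K4 was the highest array for 5 of the 7 tested mast cell genes, Slc18a2 narrowly included, against 23.4% of all genes tested, a count made after the values were seen. K4 exceeded W3 by a log2 of 1.90 to 2.34 over the 4 genes and W2 by 0.74 to 1.81, whereas K5 differed from W2 by -0.85 to 0.11 and from W3 by -0.026 to 1.27. Over all genes tested the median difference between any 2 arrays was at most 0.031. An excess of K4 over each other array by a log2 of at least 1 was seen for Cpa3, Cma1 and Mcpt4, 3 of the 7 tested mast cell genes, and for 0.529% of all genes tested, a comparison chosen after the values were seen. Without K4 the difference was -0.0095 for Cpa3, -0.44 for Cma1, 0.21 for Mcpt4 and 0.69 for Tpsb2. Without K5 it was 2.04 for Cpa3, 1.63 for Cma1, 1.74 for Mcpt4 and 1.32 for Tpsb2, where the spread came from the wild type arrays alone and no adjusted p was under 0.05.

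**Figure D2:**
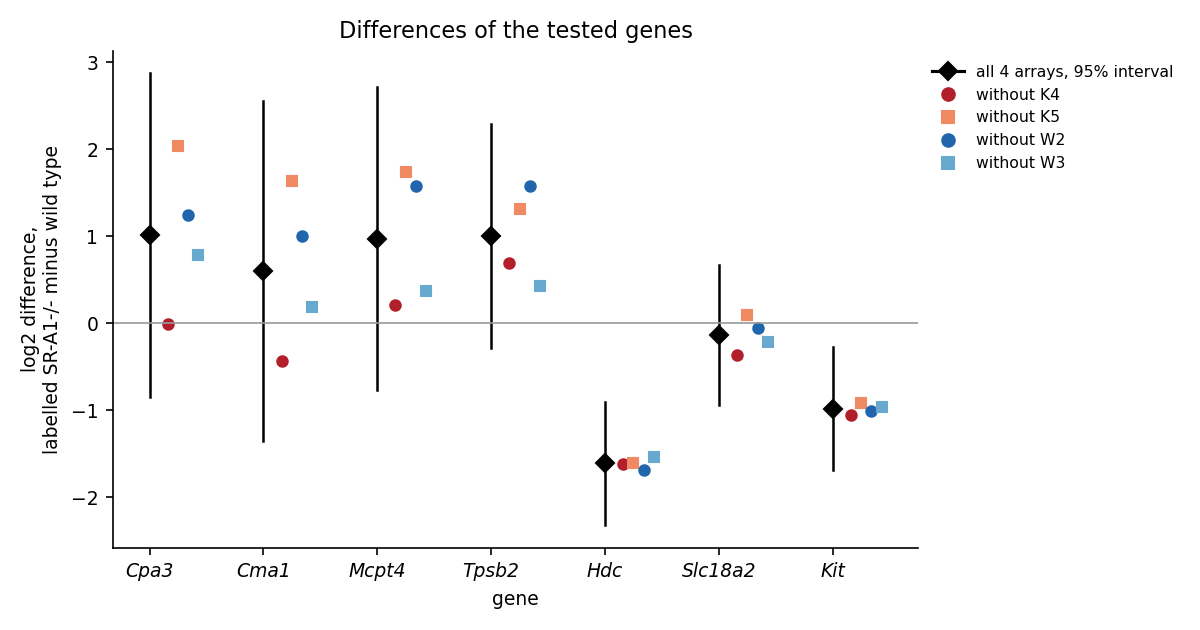
Log2 difference, labelled SR-A1-/- minus wild type (y axis), of the 7 tested mast cell genes (x axis). Diamonds are the differences over 4 arrays with their 95% intervals from limma, and coloured points leave out 1 array each. Without K4 the Cma1 difference falls from 0.60 to -0.44. That of Tpsb2 moves most with the wild type arrays, to 0.43 without W3 and 1.58 without W2. Hdc stays between -1.69 and -1.53.

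Hdc encodes histidine decarboxylase, the enzyme that makes histamine, and is used by mast cells, basophils and, after stimulation, neutrophils and macrophages. Its brightest probe, at chr2:126419516-126419575 (mm9, base 2219 of NM_008230), read -1.68 on K4 and -1.68 on K5, against -0.15 on W2 and 0.0083 on W3. The 2 arrays of each group were close to each other and the groups did not overlap. Both arrays labelled SR-A1-/- lay below both labelled wild type for Hdc and Kit, 2 of 7 genes, against 13.7% of all genes tested. The Hdc difference was -1.61 ± 0.28 (95% interval -2.32 to -0.90), or 3.05-fold higher in wild type, with an unadjusted p of 0.00215 and an adjusted p of 0.292 in limma, at rank 165 of the 22498 genes tested.

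A second Hdc probe, designed on ENSMUST00000138752 at chr2:126426030-126426089, was also above background on all 4 arrays. It read -4.79 on K4 and -3.84 on K5, against -3.25 on W2 and -2.42 on W3. The groups again did not overlap, and they differed by -1.49 ± 0.51 in a fit of all probes. This probe was dim, and on K4 it lay close to the lowest level called above background there, -5.03. The third probe, at base 1378 of NM_008230, was above background on 0 of the 4 arrays. Each array left out in turn gave an Hdc difference between -1.69 and -1.53, and the unadjusted p stayed under 0.05 in all 17 alternatives, with adjusted p of 0.165 or more. With normexp background correction the difference was -1.04.

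Kit encodes the receptor of stem cell factor, used by mast cells, haematopoietic progenitors, melanocytes and interstitial cells of Cajal. Its brightest probe, at chr5:76052394-76052453 (mm9, base 4828 of NM_001122733), read -0.27 on K4 and -0.40 on K5, against 0.63 on W2 and 0.67 on W3. The groups did not overlap, and the arrays of each group were closer to each other than the groups were. The Kit difference was -0.98 ± 0.27 (95% interval -1.69 to -0.28), or 1.98-fold higher in wild type, with an unadjusted p of 0.0161 and an adjusted p of 0.599 in limma.

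The other 2 Kit probes, adjacent to each other at chr5:76048202-76048321 and designed on AK047175, did not follow it. They read -3.29 and -4.17 on K4 and -3.21 and -4.26 on K5, against -1.40 and -2.18 on W2, and were not well above background on W3. The lowest level called above background on W3 was -4.99, below K4 and K5, though a somewhat higher level can also go uncalled. No difference between groups is given for these probes. The mean of the 3 probes, which takes the W3 readings as they stand, gave a Kit difference of -0.40 with an unadjusted p of 0.656 in limma, and with 1 array left out the unadjusted p of the brightest probe lay between 0.0556 and 0.099.

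**Figure D3:**
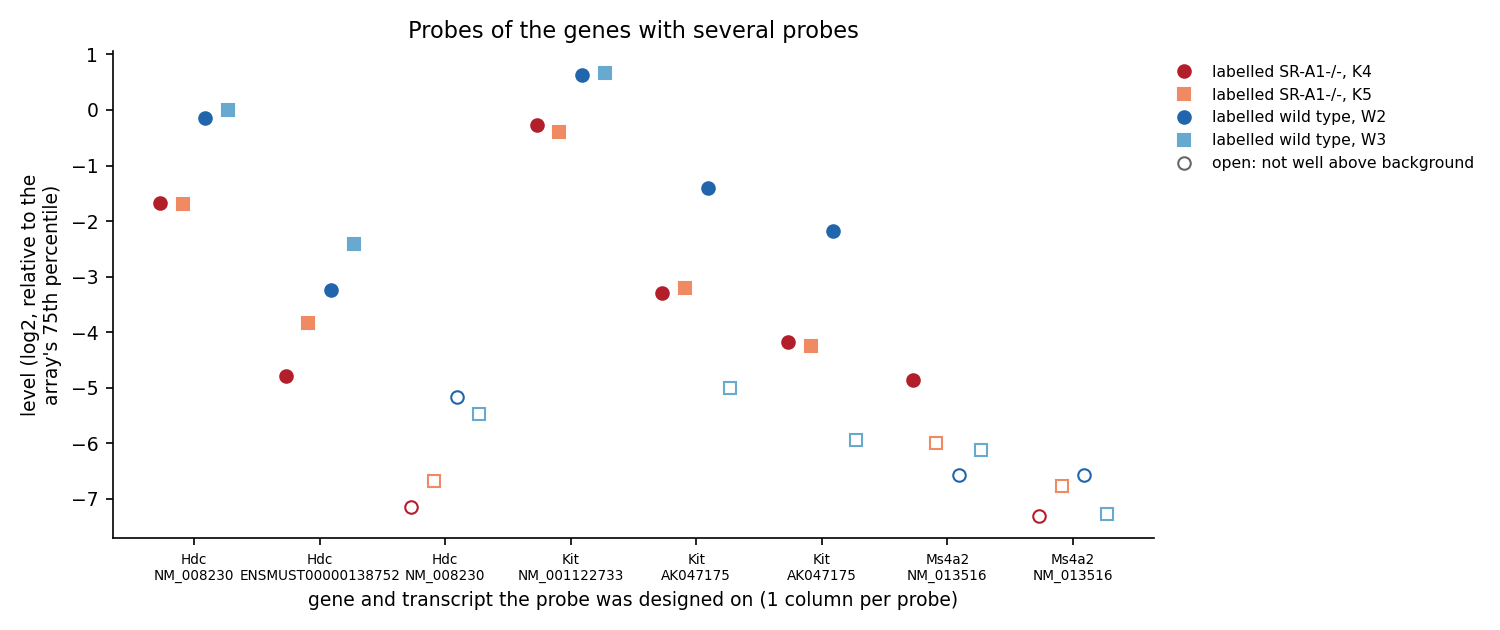
Log2 level relative to the array's 75th percentile (y axis) for each probe of Hdc, Kit and Ms4a2, named by the transcript it was designed on (x axis). Filled points were well above background. Both Hdc probes above background read lower on K4 and K5 than on W2 and W3, whereas the 2 Kit probes on AK047175 were highest on W2 and not above background on W3.

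Slc18a2 encodes the vesicular monoamine transporter VMAT2, which loads histamine and serotonin into granules and is also used by platelets and sympathetic neurons. It read -2.61 on K4 and -3.08 on K5, against -2.63 on W2 and -2.78 on W3, at chr19:59370102-59370161 (mm9, base 3402 of NM_172523). The groups overlapped, and the difference was -0.14 ± 0.31 (limma adjusted p = 1.0), with a 95% interval of -0.94 to 0.67.

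Fcer1a and Ms4a2 encode the alpha chain of Fc epsilon RI, which binds IgE, and its signal-amplifying beta chain. Fcer1a, read at chr1:175152865-175152924, had a log2 level of -4.03 on K4 and readings of -4.56 on K5, against -4.63 on W2 and -6.80 on W3. It was well above background on K4 alone, at a level above the lowest called on each other array. K5 was not measured above background, so no fold between the groups is given. The probe is printed because the receptor's binding chain was seen on 1 array.
Fcer1a probe: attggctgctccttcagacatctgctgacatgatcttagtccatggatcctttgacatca
The Ms4a2 probe at chr19:11690107-11690166 had a log2 level of -4.87 on K4 and readings of -5.99 on K5, against -6.57 on W2 and -6.12 on W3. It too was well above background on K4 alone, and the other Ms4a2 probe was above background on 0 of the 4 arrays. The lowest level called above background was -5.03 on K4 and -4.49 on K5, against -4.26 on W2 and -4.99 on W3. The Ms4a2 level of K4 lay below the lowest level called on K5 and on W2, so its detection on K4 alone does not show a difference from those arrays.

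Other mast cell genes were read from a list of 20, of which 14 were tested. None passed an adjusted p of 0.05, 2 were higher at an unadjusted p under 0.05 (3.84% of all genes tested) and 0 lower (2.45%), and their median difference was 0.46. Both arrays labelled SR-A1-/- lay above both labelled wild type for 5 (16.1% of all genes) and below for 1 (13.7%). Alox5, the lipoxygenase that starts leukotriene synthesis in several myeloid cells, was at -0.12 and -0.56 on K4 and K5, against -1.64 and -1.39 on W2 and W3 (difference 1.18 ± 0.32, limma adjusted p = 0.578). Il1rl1, the receptor of interleukin-33, was at -0.76 and -1.55 on K4 and K5, against -2.68 and -2.13 on W2 and W3 (1.25 ± 0.41, limma adjusted p = 0.698). The groups did not overlap for either gene, Il1rl1 being read by its brightest probe. The other 2 Il1rl1 probes were above background on 0 of the 4 arrays. Rab27b, a GTPase of granule release, was at -0.69 and -1.16 on K4 and K5, against -0.51 and -0.018 on W2 and W3, the 1 gene lower on both arrays (-0.66 ± 0.35, limma adjusted p = 0.948). Mrgprb1, Mrgprb2, a receptor of connective tissue mast cells for cationic peptides, and Tph1, which makes serotonin, were above background on 0 of the 4 arrays.

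Genes of Fc epsilon RI and KIT signalling, most of which are used by many leukocytes, were all tested. The 16 had a median difference of 0.79, against -0.0058 for all genes tested, and both arrays labelled SR-A1-/- lay above both labelled wild type for 10 (16.1% of all genes) and below for 0 (13.7%). At an unadjusted p under 0.05, 3 were higher (3.84% of all genes), and 0 passed an adjusted p of 0.05. They were the kinase subunit Pik3cd at 1.29 ± 0.32, the phosphatase Inpp5d (SHIP1), which restrains mast cell degranulation, at 1.08 ± 0.30, and the phospholipase Plcg2 at 0.84 ± 0.28, with limma adjusted p between 0.519 and 0.699. Macrophages also use many of these genes. The 10 macrophage markers had a median difference of 1.31, with 6 higher (16.1% of all genes) and 1 lower (13.7%) on both arrays. At an unadjusted p under 0.05 in limma 6 were higher (3.84% of all genes) and 0 lower (2.45%), and 0 passed an adjusted p of 0.05. Their summed level was 173 to 229 on the arrays labelled SR-A1-/- against 64.4 to 286 on those labelled wild type. Lyz2, named after its values were seen, led the sum on each array. The part of macrophages in the signalling result was not tested.

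Growth factors of mast cells and their receptors had a median difference of -0.0096 over the 11 of 15 tested, with 3 higher (16.1% of all genes) and 1 lower (13.7%) on both arrays labelled SR-A1-/-. Kitl, which encodes the KIT ligand stem cell factor, differed by -0.0096 ± 0.36 (limma adjusted p = 1.0). The epithelial cytokine gene Tslp was at -1.97 and -2.53 on K4 and K5, against -3.12 and -4.13 on W2 and W3, and differed by 1.38 ± 0.46 (limma adjusted p = 0.702). Il3ra, the alpha chain of the interleukin-3 receptor, was at 1.81 and 2.12 on K4 and K5, against 3.34 and 2.51 on W2 and W3, and differed by -0.96 ± 0.39 (limma adjusted p = 0.811). A second Il3ra probe overlapped between groups. Il3, Il4, Il9 and Il9r were not tested. Of 12 receptors and degrading enzymes of mast cell mediators 6 were tested, with a median of 0.20. On both arrays labelled SR-A1-/- 2 were higher (16.1% of all genes) and 0 lower (13.7%). At an unadjusted p under 0.05 in limma 1 was higher (3.84% of all genes), the endothelin receptor gene Ednra (0.74 ± 0.28, limma adjusted p = 0.778).

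Markers of basophils, neutrophils, melanocytes, interstitial cells of Cajal and platelets were read beside Hdc, Kit and Slc18a2, and the part of these cells in any difference was not tested. Of 5 basophil markers, Mcpt8 and Cd200r3 were not above background on any array, and the 3 tested had a median difference of -0.16, with Il3ra lower on both arrays. Il3ra made up nearly all of their summed level, which was 3.65 to 4.49 on the arrays labelled SR-A1-/- and 5.85 to 10.2 on those labelled wild type. Prss34 and Itga2b differed by -0.16 ± 0.29 and 0.072 ± 0.30. Neutrophil markers, with 8 of 10 tested and Ltf and Ngp not tested, had a median of 0.051 and summed to 2.27 and 2.80 on K4 and K5, against 1.01 on W2 and 4.91 on W3. S100a9 led the sum on W3, at a log2 level of 1.63, and Ly6g on K4 and K5, at 0.035 and 0.73. Ly6g was at -1.56 on W3 and not well above background on W2 (limma adjusted p = 0.647). On both arrays labelled SR-A1-/- 2 of the 8 neutrophil markers were higher (16.1% of all genes) and 0 lower (13.7%). Melanocyte markers, with 4 of 6 tested and Pmel and Tyrp1 not tested, summed to 3.54 and 6.96 on K4 and K5, against 2.44 and 1.95 on W2 and W3. Mlana led the sum on K4 and K5 (2.26 ± 0.55, limma adjusted p = 0.509), Dct was lower on both arrays (-0.46 ± 0.31, limma adjusted p = 1.0), and Tyr and Sox10 overlapped between groups. Markers of interstitial cells of Cajal summed to 10.8 and 13.9 against 11.5 and 12.4, with all 4 tested. The summed level of the 6 platelet markers was 28.4 and 16.2 on K4 and K5, against 6.75 and 11.4 on W2 and W3, most of it Pf4, which macrophages also make (1.5 ± 0.43, limma adjusted p = 0.62). Their median difference was -0.068, and Gp9 was lower on both arrays (-0.98 ± 0.34, limma adjusted p = 0.718).

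Cells of the vessel wall and around it were read in the same way. Smooth muscle markers, which share the direction of Hdc and Kit, had a median difference of -0.56 and were lower on both arrays labelled SR-A1-/- in 5 of 8 (13.7% of all genes), with summed levels of 1078 and 1306 on K4 and K5, against 1887 and 1373 on W2 and W3. Skeletal muscle markers were lower on both arrays in 4 of 8 (13.7% of all genes) and higher in 2 (16.1%). The part of either tissue in the Hdc and Kit differences was not tested. Leukocyte markers had a median of 1.03, and 1 of 5 was higher on both arrays (16.1% of all genes). The median was 0.086 for 8 fibroblast markers, 0.53 for 6 endothelial markers and -3.18 for 8 white adipocyte markers, the last with K5 far below the other arrays.

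**Figure D4:**
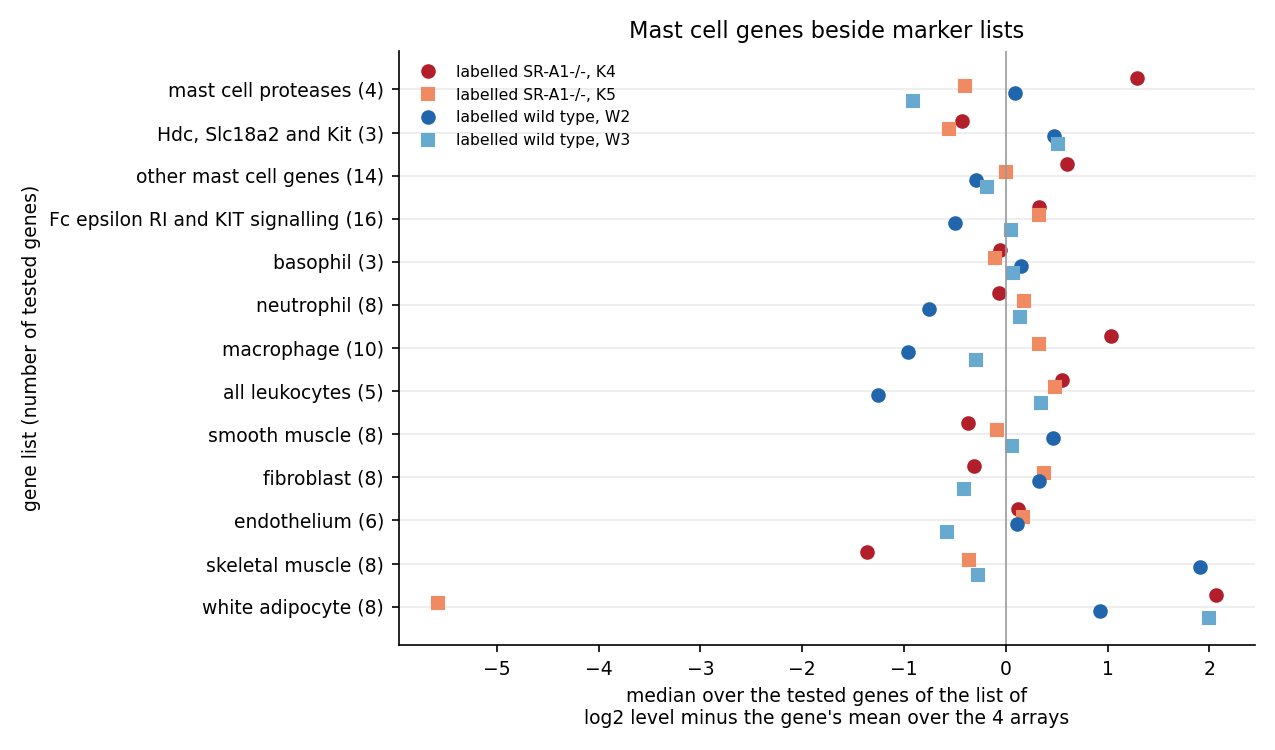
Median over each list of the log2 level minus the gene's own mean over the 4 arrays (x axis), for the mast cell proteases, for Hdc, Slc18a2 and Kit, and for the lists of other cells (y axis, with the number of tested genes). The proteases are at 1.29 on K4 and at -0.40, 0.094 and -0.91 on K5, W2 and W3. White adipocyte markers stand lowest on K5 and leukocyte markers lowest on W2.

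The mean pattern of the 7 tested mast cell genes over the 4 arrays was 0.55 and -0.43 on K4 and K5 and 0.20 and -0.32 on W2 and W3, after each gene's mean was subtracted. Of 20061 other genes above background on all arrays, the 5 nearest to it were Eri2, D430019H16Rik, Flrt3, Amph and Mfsd7c, at a root mean square difference of 0.056 to 0.070 over the 4 arrays. The mean joins genes of different order, with K4 highest for Cpa3 and W3 highest for Hdc, so this likeness describes neither gene alone.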

How the data were processed

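Labelled RNA of 4 samples was hybridised to 4 one-colour (Cy3) Agilent arrays on 1 slide, read at 1 scan time. Agilent Feature Extraction 12.0.3.1 made the processed intensity, per the file headers: background was subtracted, the array detrended, surrogates put in for low values, and no scaling applied across arrays. The submitters' processing notes name version 10.7, and limma with no role. The mean and background signals are raw intensity values, and the above-background and outlier columns are flags, per the file headers. The authors' deposited table holds log2 values with nearly equal distributions, and its normalisation and centring are not stated.

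Here log2 processed signals had each array's 75th percentile over probes subtracted. Outlier spots were left out, repeated spots averaged, and probes well above background on at least 2 arrays kept, with the brightest probe per gene. Groups were compared with limma 3.58.1 (lmFit, eBayes, two-sided, Benjamini-Hochberg over all genes) in R 4.3.3. The fit was also run on simulated arrays with the same spread for every gene, a simpler setting than that of these arrays. Plots used matplotlib 3.10.9. Dim readings were set beside the lowest level called above background on each array, which is not a strict bound for uncalled probes. The members and the 17 other lists were chosen with earlier results of these data known. One of these lists is not reported here. Besides all members and Msr1, up to 3 genes per list by smallest p and the 5 nearest patterns could be named. The number of arrays limits the precision. Summed levels are sums of linear signals over each list's tested genes, relative to the 75th percentile. Probe positions are on mm9 and promoters on GRCm38.p6, and neither was converted.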

Additional observations from a re-analysis of the deposited data

How the results depend on the processing

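No paired analysis was possible because the labels number the arrays 4 and 5 in one group and 2 and 3 in the other, so no shared number joins them. The block by signal level set K4 with W3 and K5 with W2 by their 75th percentiles, a technical split and not a pairing of animals. No mast cell gene passed an adjusted p of 0.05 under any of the 17 alternatives. Over all genes the count past an adjusted p of 0.05, 0 as reported with 1416 at an unadjusted p under 0.05, was 8 with quantile normalisation, cyclic loess, no filter on dim probes or the deposited values, 7 with median scaling, 22 with normexp background correction, 5 with an intensity trend, 2 with array weights, and 0 to 371 with 1 array left out. Unadjusted p under 0.05 was reached by 924 genes with normexp, by 2814 with signal level as a block, and by 875 to 2182 with 1 array left out, the highest without W2. Mast cell genes at an unadjusted p under 0.05 numbered 1 with the mean of a gene's probes and 1 to 4 with 1 array left out. Those higher on both arrays labelled SR-A1-/- numbered 4 without the filter, when all 10 were counted. The genes added there were above background on at most 1 array. With 1 array left out the count was 1 to 5, the highest without K5, where K4 alone stood for its group. Those lower on both numbered 1 with the mean of a gene's probes and 2 to 4 with 1 array left out, the highest without K4. The share over all genes was not counted in these settings, so these counts describe the members alone. The median difference was -0.37 to 1.32 with 1 array left out, the lowest without K4. Direction was reversed for Cpa3 (-0.0095) and Cma1 (-0.44) without K4 and for Slc18a2 (0.095) without K5. Without K5, Cpa3 was at 2.04 and Cma1 at 1.63. The other members kept their direction in all alternatives, and a lone array was assumed to vary like the other group.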

Other observations

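Of the 14 other mast cell genes tested, 9 were highest on K4 and 5 were not (Rab27b, Adora3, Ndst2, Mitf and Cd63), against 23.4% of all genes tested highest on K4. This tally and the genes named here were chosen after the values were seen. Gata2, a transcription factor that mast cells need, was at 0.25 on K4 and -0.98 on K5, against -0.38 on W2 and -0.73 on W3 (log2 difference 0.19 ± 0.49, limma adjusted p = 1.0). Tpsg1, a membrane-bound tryptase, was at -3.09 on K4 and -5.88 on K5, against -3.86 on W2 and -5.37 on W3, and was above background on K4 and W2. Srgn, the proteoglycan core on which granule heparin is built and which many leukocytes make, was at 2.63 on K4 and 1.77 on K5, against 1.27 on W2 and 2.26 on W3 by its brightest probe, while its other 2 probes were highest on K5, at -3.96 and -3.35. The angiotensin II receptor gene Agtr1a, which is not specific to mast cells and whose ligand chymase can make, was at 1.31 on K4 and 0.029 on K5, against -0.73 on W2 and -0.48 on W3 (1.28 ± 0.50, limma adjusted p = 0.793). Mitf, the other lineage factor, was not highest on K4 by its brightest probe, at 2.99 and 3.08 on K4 and K5 against 2.29 on W2 and 3.25 on W3.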
